A study of Mus musculus with 12 samples.

Results

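The genes that mark the hepatocytes around the central vein of the liver lobule, together with the Wnt target genes that keep that zone in place, were followed in the livers of germ-free and conventionalized mice. Membership was set by gene symbol. The 10 genes named were Glul, Cyp2e1, Oat, Slc1a2 and Rhbg, which hepatocytes near the central vein use to handle glutamine, glutamate, ammonium and foreign compounds, and Axin2, Lgr5, Tbx3, Rnf43 and Znrf3, which are targets or feedback regulators of Wnt signalling. Of these, 9 had a row among the 41128 genes of the expression table, and all 9 were among the 11782 genes tested. Rhbg, an ammonium transporter, was not analysed here. The mice were germ-free C57BL/6 littermates that were separated at weaning, at day 21. Those of the GF groups stayed in sterile isolators, and those of the CV (conventionalized) groups spent 3 weeks in cages with soiled bedding from the animal facility. Livers of all mice were taken at 6 weeks of age. The 4 groups (GF male, GF female, CV male and CV female) held 3 mice each, with 1 stranded mRNA library per mouse. Conventionalization by bedding brings in an undefined set of microbes, and no group was colonized with a known strain. Whether the CV and GF livers differed in these genes was asked within the male-labelled (M) mice, within the female-labelled (F) mice, and on average over both.

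The liver lobule is divided into zones along the flow of blood from the portal tract to the central vein. Endothelial cells at the central vein release Wnt ligands and R-spondin 3, and hepatocytes next to the vein respond through β-catenin and TCF factors. The response turns on glutamine synthetase (Glul) in a thin ring of cells, and holds enzymes such as Cyp2e1 high in a wider band, while periportal hepatocytes carry out urea synthesis and gluconeogenesis. RNA from whole liver does not show position within the lobule, and fewer cells of a type cannot be told apart from less RNA per cell.

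Values are normalised read counts, that is reads divided by a size factor for each library. Recovered depth was 5993619 to 10975691 reads in GF libraries and 8890529 to 15290835 reads in CV libraries. A group of 9 abundant loci, namely the 2 mitochondrial ribosomal RNA genes, Lars2, Mir6236 and 5 predicted genes, took 55.6% ± 12.1 (SD, n = 6) of the reads in GF and 11.7% ± 7.86 (SD, n = 6) in CV libraries, with no overlap between conditions. Reads outside these loci came to 1811042 to 5262722 in GF and 6931429 to 14403918 in CV libraries, also without overlap, so that counting error was larger in GF. The library labelled CV male 3 had 2382 normalised reads of Xist and 0 reads from 4 Y-linked genes, among 8890529 reads, which goes against its male label. It was kept under its label, and a part of the results is given with and without it. The M changes of Slc1a2, Rspo3, Ctnnb1 and Tcf7 are given only with it. Of the hepatocyte markers, 3 of 4 tested (Alb, Apoa1 and Ttr) were higher in CV than in GF livers, and 4 of 5 red blood cell markers were lower, with a summed level of 2777 to 32880 in GF and 915.7 to 3159 in CV libraries. Of the endothelial markers, 2 of 8 were lower in CV livers (Stab2 and Cdh5), and their sum ran from 1155 to 2720 in GF and from 525.7 to 1514 in CV libraries. Of the Kupffer cell markers, 3 of 5 were higher in CV livers, 2 of 3 lymphocyte markers tested were lower, stellate cell markers split 1 higher and 1 lower of 5, and 0 of 5 cholangiocyte markers were called. The part of these shifts in the results below was not tested.

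The level of each gene was first compared per kilobase of exon, so that genes of different lengths could be ordered. Cyp2e1 stood highest, with a mean over the 4 groups of 17650 normalised reads per kb and single libraries between 5211 and 33290. Oat followed at 1949 and Glul at 1386 normalised reads per kb, and the ranges of this pair overlapped in 3 of 4 groups. Slc1a2 came next at 139.8 normalised reads per kb, and its range did not overlap that of Glul in any of the 4 groups. The Wnt targets and regulators were the lowest of the 9. Tbx3 had 27.4, Rnf43 18.5, Znrf3 14.2, Axin2 6.50 and Lgr5 4.22 normalised reads per kb. Neighbours among these 5 did not separate cleanly: the ranges of Tbx3 and Rnf43 overlapped in 2 of 4 groups, those of Rnf43 and Znrf3 in 2, those of Znrf3 and Axin2 in 1, and those of Axin2 and Lgr5 in 3. In reads, Axin2 had 10 to 74 and Lgr5 10 to 84 per library, against 6783 to 138046 for Cyp2e1, so that counting error weighs most on Axin2 and Lgr5.

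**Figure D1:**
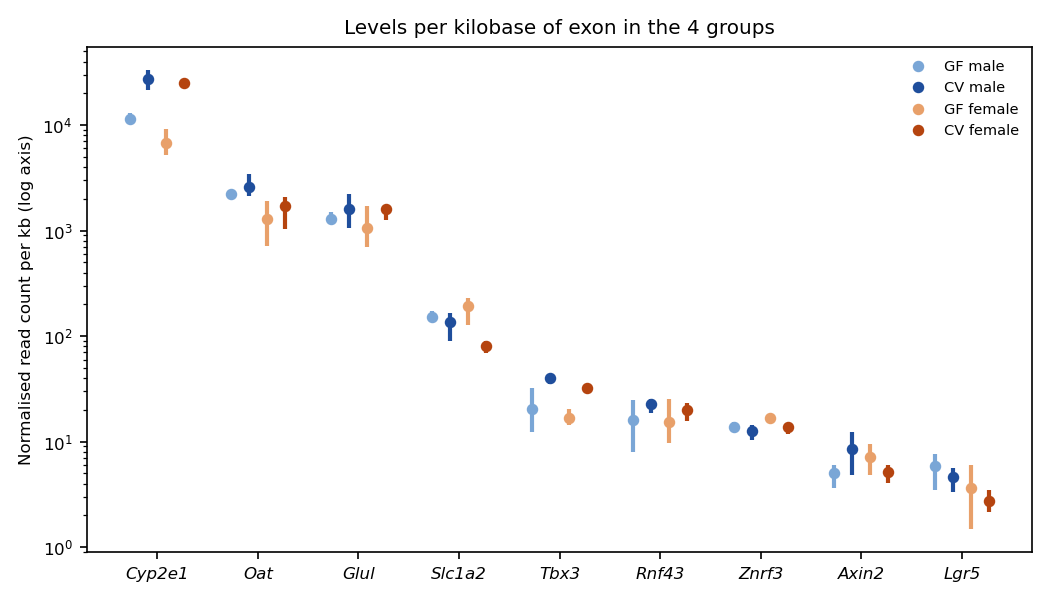
Normalised read count per kilobase of exon (log axis) for each of the 9 genes in the 4 groups, with points for the mean and bars from the lowest to the highest of 3 libraries. Cyp2e1 stands above the other genes in every group, and Axin2 and Lgr5 are the lowest with overlapping ranges in 3 groups.

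Cyp2e1 (ENSMUSG00000025479, GRCm38 chromosome 7, 140763739 to 140774987, plus strand) encodes a cytochrome P450 that oxidizes ethanol, acetone and paracetamol. Its normalised read count was 21950, 28400 and 24060 in the GF male livers and 71850, 46670 and 59200 in the CV male livers. In the GF female livers it was 11240, 19860 and 13000, and in the CV female livers 50460, 55540 and 54910. Each CV library thus stood above each GF library, in both labelled sexes. The mean log2 change over both sexes was 1.58 ± 0.28 (SE), a 2.98-fold higher level in CV livers (adjusted p = 0.00016). In M mice the log2 change was 1.24 ± 0.40 (SE, adjusted p = 0.028), and in F mice it was 1.91 ± 0.40 (SE, adjusted p = 0.00078). The M change did not pass the threshold when any of these 3 libraries was left out: it was 1.23 (adjusted p = 0.060) after removal of the library labelled CV male 3, 1.16 (adjusted p = 0.11) without GF male 1 and 1.22 (adjusted p = 0.087) without GF male 3. With a minimum mean level of 1 or with no filter on low genes, the M change of 1.24 had an adjusted p of 0.092 and 0.26. Its averaged change was at the 94.7th percentile of all genes tested.

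The DNA before a RefSeq start of Cyp2e1 and of Slc1a2 is shown because each stretch holds the core of a TCF/LEF site, the sequence through which β-catenin acts, and that before the start of Axin2 because this gene is a textbook Wnt target. Both spellings of the core (CTTTGAT and CTTTGAA) were searched on both strands of the 250 bases before each RefSeq start. Runs are on the plus strand of GRCm38.p6, 5′ to 3′, with a match in capitals, and are cut where they reach an exon base of the gene in GENCODE. The Slc1a2 stretch lies within the gene as GENCODE gives it, outside its exons.
Cyp2e1, chr7:140763569-140763738: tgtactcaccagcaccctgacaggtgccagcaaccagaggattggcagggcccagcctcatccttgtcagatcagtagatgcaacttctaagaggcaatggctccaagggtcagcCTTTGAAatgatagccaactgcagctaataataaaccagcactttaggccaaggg
Slc1a2, chr2:102706188-102706355: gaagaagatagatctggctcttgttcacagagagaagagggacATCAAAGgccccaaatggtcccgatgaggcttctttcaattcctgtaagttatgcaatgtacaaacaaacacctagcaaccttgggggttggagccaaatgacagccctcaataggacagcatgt
Axin2, chr11:108920099-108920348: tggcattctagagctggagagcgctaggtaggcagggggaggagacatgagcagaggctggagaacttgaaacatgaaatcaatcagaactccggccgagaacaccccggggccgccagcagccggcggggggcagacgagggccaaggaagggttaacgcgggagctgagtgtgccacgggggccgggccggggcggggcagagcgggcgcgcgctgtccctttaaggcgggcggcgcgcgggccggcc
In Cyp2e1, CTTTGAA lay on the gene's strand, 135 to 129 bases before the RefSeq start. In Slc1a2, CTTTGAT lay on the opposite strand, 207 to 201 bases before a RefSeq start that falls inside the GENCODE gene. No match was found in the 250 bases before the starts of Glul, Oat, Rnf43 (2 starts) or Axin2, and Lgr5, Tbx3, Znrf3 and Rhbg had no entry. The 2 spellings do not overlap each other. Of 32851 mouse promoters of the same length, 7.48% held at least 1 of them, 3.21% the first and 4.46% the second. A match is a description of the letters and not a binding site, and no match says nothing about regulation from elsewhere.

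Slc1a2 (ENSMUSG00000005089, GRCm38 chromosome 2, 102658659 to 102790784, plus strand) encodes the glutamate transporter GLT-1, which hepatocytes around the central vein also carry. Its normalised read count was 2278, 1854 and 1814 in GF males and 1190, 1952 and 2183 in CV males, with overlap. In the livers labelled female it was 1688, 3035 and 2879 in GF and 1073, 1181 and 901.3 in CV. These CV libraries were all below the GF libraries. The library labelled CV male 3, whose Xist and Y-linked reads go against its label, had 2183, within the GF female range. Set with the CV females, it would end that separation. Over both sexes Slc1a2 fell by 0.71 ± 0.21 (SE) on the log2 scale, a 1.64-fold lower level in CV livers (adjusted p = 0.0070). In F mice it fell by 1.23 ± 0.29 (SE, adjusted p = 0.0021), while in M mice the log2 change was -0.20 ± 0.29 (SE, adjusted p = 0.63). The direction of this gene depended on the processing. After the trend of each library with gene length and GC content was removed, its averaged log2 change was 0.11 (adjusted p = 0.62) and its change in F mice -0.21 (adjusted p = 0.52). Scaled to all reads it was -0.15 (adjusted p = 0.52), and scaled to reads outside the abundant loci it was -1.18 (adjusted p = 0.00034). At 13.1 kb, Slc1a2 had the longest exon total of the 9 genes.

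Glul (ENSMUSG00000026473, GRCm38 chromosome 1, 153899944 to 153909723, plus strand) encodes glutamine synthetase, which traps ammonium in glutamine in the last cells before the central vein. It had 3978, 4947 and 3896 normalised reads in GF males and 3478, 5277 and 7347 in CV males. It had 2337, 5671 and 2528 in GF females and 4225, 5853 and 5732 in CV females. The groups overlapped in both sexes, through GF female 2 and CV male 1. The averaged log2 change was 0.48 ± 0.25 (SE, 95% interval -0.056 to 1.02, adjusted p = 0.11), the M change 0.27 ± 0.36 (SE, adjusted p = 0.59) and the F change 0.69 ± 0.36 (SE, adjusted p = 0.11). Leaving out GF female 2 brought the averaged change to 0.69 (adjusted p = 0.013) and the F change to 1.10 (adjusted p = 0.0096), and leaving out CV male 1 brought the averaged change to 0.62 (adjusted p = 0.036). Without the library labelled CV male 3, the highest CV library, the averaged change was 0.35 (adjusted p = 0.25) and the M change 0.012 (adjusted p = 0.98). Scaled to all reads Glul rose by 1.04 on the log2 scale (adjusted p = 0.00032), and scaled to reads outside the abundant loci its log2 change was 0.012 (adjusted p = 0.97).

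Oat (ENSMUSG00000030934, GRCm38 chromosome 7, 132557478 to 132576398, minus strand) encodes ornithine aminotransferase, which turns ornithine toward glutamate. It had 5340, 5424 and 4852 normalised reads in GF males and 8050, 5004 and 5416 in CV males, and 1676, 4519 and 2837 in GF females against 4916, 4719 and 2433 in CV females. The CV and GF ranges overlapped in both sexes. The averaged log2 change was 0.34 ± 0.26 (SE, 95% interval -0.21 to 0.89, adjusted p = 0.27). Scaled to all reads it was 0.90 (adjusted p = 0.0021), and after removal of the length and GC trend it was -0.053 (adjusted p = 0.87).

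Tbx3 (ENSMUSG00000018604, GRCm38 chromosome 5, 119670669 to 119684724, plus strand) encodes a T-box transcription factor that is a Wnt target in liver. It was the second gene to rise in both sexes. Its normalised read count was 214.9, 103.8 and 82.2 in GF males and 283.1, 233.7 and 288.0 in CV males. In females it was 104.2, 95.8 and 136.1 in GF and 195.2, 208.9 and 230.6 in CV livers. The groups did not overlap within either sex, although GF male 1 reached above the 2 lowest CV females. The averaged log2 change was 1.02 ± 0.21 (SE), a 2.03-fold higher level in CV livers (adjusted p = 0.00060). The log2 change was 1.12 ± 0.30 in M mice (SE, adjusted p = 0.013) and 0.92 ± 0.30 in F mice (SE, adjusted p = 0.015). Without the library labelled CV male 3 the M change was 1.06 (adjusted p = 0.033), and without GF male 3 it was 0.83 (adjusted p = 0.073). Scaled to reads outside the abundant loci, the averaged change was 0.55 (adjusted p = 0.066), and after removal of the length and GC trend it was 1.30 (adjusted p = 4.2e-05). The F change was 0.29 scaled to reads outside the abundant loci (adjusted p = 0.49), and 0.86 without CV female 3 (adjusted p = 0.056).

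Axin2 (ENSMUSG00000000142, GRCm38 chromosome 11, 108920349 to 108950783, plus strand) encodes a scaffold of the β-catenin destruction complex, and is read as a general reporter of Wnt signalling because it is induced by the signal that it dampens. It had 33.1, 30.6 and 19.8 normalised reads in GF males and 26.5, 47.7 and 67.2 in CV males, and 40.8, 26.6 and 51.8 in GF females against 22.3, 29.6 and 33.1 in CV females. The ranges overlapped in both sexes. The averaged log2 change was 0.12 ± 0.27 (SE, 95% interval -0.45 to 0.68, adjusted p = 0.72). The M change was 0.68 ± 0.38 (SE, adjusted p = 0.18), and it was 0.38 (adjusted p = 0.52) without the library labelled CV male 3, the library with the most Axin2. The F change was -0.44 ± 0.38 (SE, adjusted p = 0.33).

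Lgr5 (ENSMUSG00000020140, GRCm38 chromosome 10, 115450311 to 115587780, minus strand) encodes a receptor for R-spondins, the secreted proteins that strengthen a Wnt signal. It had 68.1, 35.9 and 77.9 normalised reads in GF males and 34.4, 50.9 and 57.2 in CV males, and 15.1, 34.6 and 61.3 in GF females against 35.3, 22.2 and 26.5 in CV females. GF libraries spanned a 15.1 to 77.9 range that contained every CV library. The averaged log2 change was -0.26 ± 0.31 (SE, 95% interval -0.91 to 0.39, adjusted p = 0.48). It was 0.29 scaled to all reads (adjusted p = 0.45) and 0.36 after removal of the length and GC trend (adjusted p = 0.30).

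Rnf43 and Znrf3 encode membrane ubiquitin ligases that remove Frizzled receptors from the cell surface, and R-spondins acting through the Lgr receptors block them. Rnf43 (ENSMUSG00000034177, GRCm38 chromosome 11, 87662722 to 87735539, plus strand) had 163.9, 51.9 and 96.4 normalised reads in GF males and 122.8, 167.7 and 153.5 in CV males. In females it had 63.4, 74.5 and 164.8 in GF and 152.3, 102.8 and 138.5 in CV livers. GF male 1 and GF female 3 reached the CV range, and the other 4 GF livers were below every CV liver. The averaged log2 change was 0.56 ± 0.27 (SE, 95% interval -0.016 to 1.15, adjusted p = 0.085). It passed the threshold after removal of the length and GC trend, at 0.88 (adjusted p = 0.0038), without GF male 1, at 0.76 (adjusted p = 0.020), without GF female 3, at 0.77 (adjusted p = 0.016), and scaled to all reads, at 1.12 (adjusted p = 0.0030). Scaled to reads outside the abundant loci it was 0.097 (adjusted p = 0.82).

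Znrf3 (ENSMUSG00000041961, GRCm38 chromosome 11, 5276324 to 5444847, minus strand) had 121.8, 105.1 and 102.0 normalised reads in GF males and 103.0, 81.1 and 112.7 in CV males, and 135.9, 127.7 and 130.3 in GF females against 113.6, 93.4 and 116.2 in CV females. The female CV livers were all below the female GF livers, but the averaged log2 change of -0.22 ± 0.16 (SE, 95% interval -0.56 to 0.12, adjusted p = 0.24) and the F change of -0.29 ± 0.23 (SE, adjusted p = 0.29) did not pass. Scaled to all reads the averaged change was 0.33 (adjusted p = 0.16), and scaled to reads outside the abundant loci it was -0.69 (adjusted p = 0.0043). Levels of these 9 genes could include reads of overlapping genes, since a stranded kit was used but the strand setting of the counting is not given in the sources used here. Genes on the opposite strand shared 3.80% of the exon bases of Axin2, 3.49% of Glul, 1.74% of Tbx3 and 1.44% of Slc1a2.

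**Figure D2:**
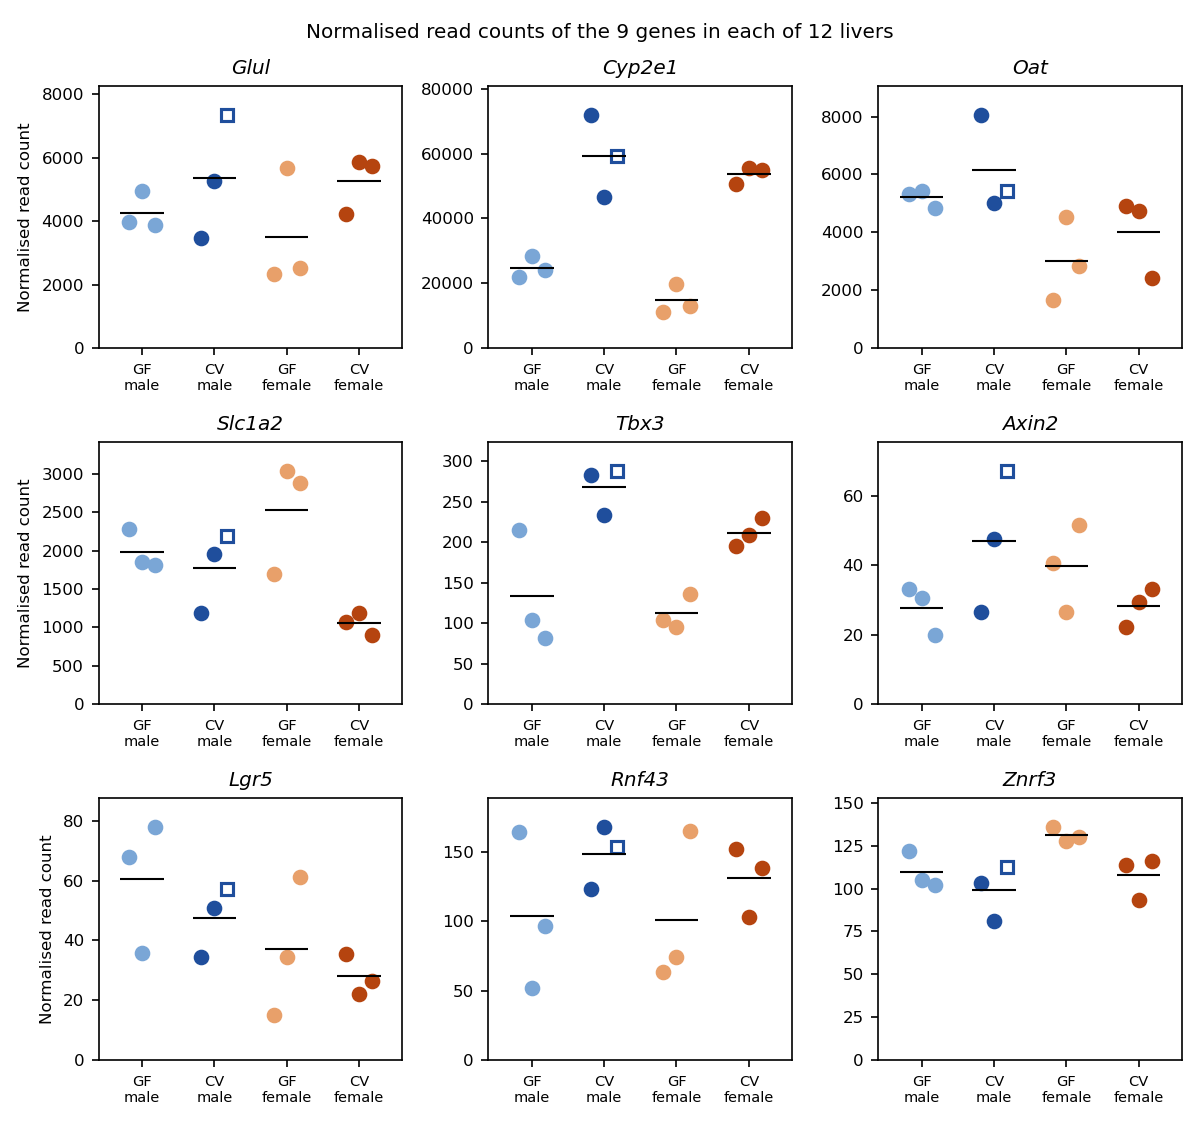
Normalised read count (linear axis from 0) of each gene in the 12 livers, with 1 point per library, a black line at the mean of each group of 3, and an open square for the library labelled CV male 3. By label, Cyp2e1 is separated between GF and CV in both sexes, Tbx3 within each sex, Slc1a2 and Znrf3 among females, and the other 5 genes overlap. For Slc1a2 the open square lies within the range of the GF females.

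Counted over the 9 genes, limma called 3 in the averaged comparison, against 61.1% of all genes tested. Of these, 2 were higher in CV livers (Cyp2e1 and Tbx3, against 32.3% of all genes) and 1 was lower (Slc1a2, against 28.7%). In M mice it called 2 of 9 against 29.5% of all genes, both higher (Cyp2e1 and Tbx3, against 14.1%). In F mice it called 3 of 9 against 55.8%, with 2 higher (Cyp2e1 and Tbx3, against 29.8%) and 1 lower (Slc1a2, against 26.0%). The share of the 9 that was called was not above that of all genes in any of the 3 comparisons. The median log2 change of the 9 was 0.34, beside 0.075 over all genes tested, and 6 of 9 averaged changes were above 0. Ranges of CV and GF livers did not overlap for 2 of 9 genes in M mice, where 43.0% of all genes were so separated (the same 2, beside 50.7%, with the library labelled CV male 3 left out), and for 4 of 9 in F mice, where the share was 64.9%. Over all 12 livers, 1 of 9 (Cyp2e1) was separated, beside 31.3% of all genes. With the log2 share of reads from mitochondrial ribosomal RNA as a covariate, 0 of 9 genes and 139 of 11782 genes were called, and with that of the abundant loci 0 of 9 and 12 of 11782. Between-group differences held 85.2% and 87.4% of the variance of these shares. The changes of Cyp2e1 and Tbx3 were then 1.17 ± 0.57 (SE, adjusted p = 0.21) and 1.03 ± 0.52 (SE, adjusted p = 0.23) with the first share.

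**Figure D3:**
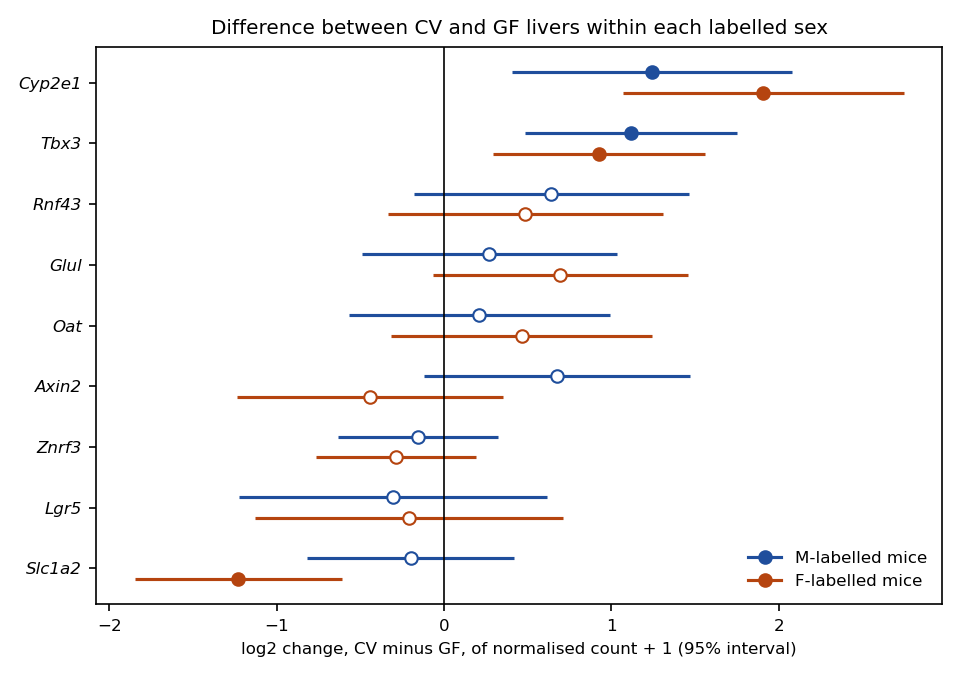
log2 change between CV and GF livers of normalised count plus 1, in M-labelled and F-labelled mice, with 95% intervals from limma and filled points for an adjusted p under 0.05. The intervals of Cyp2e1 and Tbx3 lie above 0 in both sexes, that of Slc1a2 lies below 0 in F mice, and the other 6 genes cross 0.

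Whether the response differed between the labelled sexes was asked with the interaction of condition and sex. In limma none of the 9 genes passed, and 0 of 11782 genes did (0.0%). edgeR also called 0 of 9, and DESeq2 called 0 of the 4 members to which it gave an adjusted p (Glul, Cyp2e1, Oat and Slc1a2). Over all genes the interaction was called for 23 genes by DESeq2, for 11 scaled to all reads, for 291 without CV male 1 and for 4 after the library labelled CV male 3 was left out. At an unadjusted p under 0.05 there was 1 of 9, beside 11.7% of all genes. That gene was Slc1a2, whose M change exceeded its F change by 1.03 ± 0.41 (SE, unadjusted p = 0.024, adjusted p = 0.42), or by 0.86 without the library labelled CV male 3 (adjusted p = 0.63). Axin2 followed, with a difference of 1.12 ± 0.53 (SE, adjusted p = 0.43), or 0.82 without the library labelled CV male 3 (adjusted p = 0.66). For Cyp2e1 the M change was lower than the F change by 0.67 ± 0.56 (SE, 95% interval of the difference -1.85 to 0.52, adjusted p = 0.60).

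Between M and F mice of 1 condition, limma called 0 of 9 genes in GF livers, where 1.63% of all genes were called, and 0 of 9 in CV livers, where the share was 0.0594%. The latter rests on 7 genes, and came to 77 genes after the library labelled CV male 3 was left out and to 48 without CV male 1. An unadjusted p under 0.05 was reached by 1 of 9 in GF livers, beside 17.6% of all genes, and by 1 of 9 in CV livers, beside 5.1%. edgeR called 0 of 9 in both. In GF livers that gene was Oat, higher in males by 0.90 ± 0.37 on the log2 scale (SE, adjusted p = 0.21). Cyp2e1 was higher by 0.79 ± 0.40 in GF males (SE, adjusted p = 0.31), and DESeq2 called it, at 0.75 (adjusted p = 0.040). Scaled to all reads, limma called both Cyp2e1, at 1.13 (adjusted p = 0.028), and Oat, at 1.25 (adjusted p = 0.018). Male and female GF ranges did not overlap for 3 of 9 genes (Cyp2e1, Oat and Znrf3), beside 18.7% of all genes. In CV livers the gene with the unadjusted p was Slc1a2, higher in males by 0.72 ± 0.29 (SE, adjusted p = 0.91), or by 0.54 without the library labelled CV male 3 (adjusted p = 1.0). Ranges of CV males and females did not overlap for 3 of 9 genes (Oat, Slc1a2 and Tbx3), beside 10.9% of all genes. The same 3 were separated with the library labelled CV male 3 left out, beside 19.2% of all genes. None of the 3 was separated when that library was set with the CV females, as its Xist and Y-linked reads would place it. Oat had 5416 normalised reads in that library and 5004 in CV male 2. Slc1a2 had 2183 and 1952 in the same 2 libraries. Tbx3 had 288.0 in the library labelled CV male 3 and 283.1 in CV male 1. The share of all genes under that grouping was not counted.

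The other genes of both zones and of the Wnt pathway were read from 8 lists of 166 genes, of which 117 passed the filter on low values. Over these, 50 were higher and 20 lower in CV livers, so that 70 of 117 were called, beside 61.1% of all genes. The split followed the scaling: it was 69 higher and 9 lower scaled to all reads, and 20 higher and 39 lower scaled to reads outside the abundant loci. Over all genes tested the split was 3807 to 3387, 5956 to 1571 and 2092 to 5038 under the same 3 scalings, and the median log2 change was 0.075, 0.63 and -0.41.

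Among 20 other pericentral hepatocyte genes, 14 rose, 3 fell and 3 were not called, and the median log2 change was 1.03. The 4 hepatocyte markers tested, of which 3 rose and 0 fell, had a median log2 change of 1.09. In M mice 8 rose and 2 fell, with or without the library labelled CV male 3, and in F mice 13 and 3. Over all 11782 genes tested, 1660 were called higher and 1814 lower in M mice (1431 and 1543 with that library left out). In F mice 3512 of all genes were called higher and 3060 lower. Cyp3a11, a P450 of drug metabolism, rose from 3222 ± 1280 (SD, n = 6) to 11490 ± 3495 (SD, n = 6), a log2 change of 1.84 (adjusted p = 1.0e-05). Tcf7l2, the TCF factor through which β-catenin acts in liver, went the other way, from 361.6 ± 91.2 (SD, n = 6) to 105.4 ± 35.0 (SD, n = 6). Its log2 change was -1.79 (adjusted p = 7.6e-06), every CV library was below every GF library, and it was lower under the other scalings too. Among 22 periportal genes, 14 were higher and 0 lower in CV livers. The median was 0.75, and the smallest p-values were those of Fbp1 of gluconeogenesis at 2.46 (adjusted p = 1.5e-06), Hsd17b13 at 1.72 (adjusted p = 3.7e-06) and the protease Ctsc at 1.71 (adjusted p = 1.4e-05). Scaled to reads outside the abundant loci, the periportal list split into 6 higher and 6 lower, and the pericentral list into 9 and 3. In M mice 5 periportal genes rose and 2 fell (5 and 1 with the library labelled CV male 3 left out), and in F mice 14 rose and 0 fell. The difference between the 2 lists was not tested.

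Of the 25 genes for Wnt ligands, R-spondins and their secretion, 8 passed the filter. Of these, 2 rose, 2 fell and 4 were not called, and the median was 0.33. The split was 4 to 1 scaled to all reads and 0 to 2 scaled to reads outside the abundant loci. Wnt2 and Wnt9b, ligands of the central vein endothelium, were low and were not called in the averaged comparison. Wnt2 had 22.4 ± 8.87 (SD, n = 6) normalised reads in GF and 30.1 ± 10.1 (SD, n = 6) in CV livers (adjusted p = 0.27), and Wnt9b 16.2 ± 14.2 and 19.0 ± 13.1 (SD, n = 6 each, adjusted p = 0.42). Wnt9b was called in M mice, where it rose by 1.72 on the log2 scale (adjusted p = 0.049, and 2.02 with adjusted p = 0.044 after the library labelled CV male 3 was left out), while its F change was -0.87 (adjusted p = 0.25). Its levels of 3 to 55 reads per library overlapped between GF and CV males. Rspo3, the R-spondin of that endothelium, fell by 0.89 on the log2 scale, from 144.3 ± 59.1 to 79.1 ± 37.3 (SD, n = 6 each, adjusted p = 0.0051). Scaled to all reads its log2 change was -0.33 (adjusted p = 0.27). The change was -1.67 in F mice (adjusted p = 0.00078) and -0.11 in M mice (adjusted p = 0.84), and 13.1% of its exon bases are shared with a gene on the opposite strand. Wnt2b fell by 2.30 (adjusted p = 0.00011). Its mean was 21.9 normalised reads in GF and 3.47 in CV livers, so that it passed the filter on low values through the GF livers alone. Wnt2b was near the floor in CV, with a mean of 16.8 reads per GF library and 5.67 per CV library. Porcn, needed to secrete Wnt proteins, rose by 0.87 (adjusted p = 0.015). Porcn had 0.42 scaled to reads outside the abundant loci (adjusted p = 0.31) and 0.50 after removal of the length and GC trend (adjusted p = 0.15). Of 8 endothelial markers, 2 were also called lower, Stab2 and Cdh5, at -1.87 and -0.59 on the log2 scale, and 0 were called higher. Clec4g and Lyve1 had changes above 0 without a call, at 0.32 (adjusted p = 0.20) and 0.074 (adjusted p = 0.86). The part of endothelial cells in the fall of Rspo3 was not tested.

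Among 11 Wnt receptors tested, 5 rose and 1 fell, and the median was 0.29. The split was 7 to 0 scaled to all reads and 2 to 4 scaled to reads outside the abundant loci. The Frizzled receptors Fzd8 and Fzd4 rose by 1.40 (adjusted p = 0.00022) and 1.17 (adjusted p = 0.0011), and the co-receptor Ryk by 0.80 (adjusted p = 0.00059). Scaled to reads outside the abundant loci, Fzd4 had 0.71 (adjusted p = 0.0505) and Ryk 0.33 (adjusted p = 0.10). Of 22 genes of the β-catenin core machinery, 4 rose and 7 fell, and the median was -0.38. The split turned to 8 to 3 scaled to all reads, and was 1 to 14 scaled to reads outside the abundant loci and 4 to 3 after removal of the length and GC trend. Ctnnb1, which encodes β-catenin, rose by 0.94, from 293.0 ± 59.0 to 586.6 ± 206.6 normalised reads (SD, n = 6 each, adjusted p = 0.0017). Its M change was 0.61 (adjusted p = 0.15) and its F change 1.28 (adjusted p = 0.0028), and 14.6% of its exon bases lie in genes on the opposite strand. Apc, the destruction complex scaffold, fell by 1.07 (adjusted p = 8.0e-05), although its log2 change was -0.074 after removal of the length and GC trend (adjusted p = 0.67). Dvl1, which relays the signal from Frizzled, fell by 1.42 (adjusted p = 9.5e-06). Of 8 Wnt inhibitors tested, 3 rose and 4 fell, and the median was -0.31. The split was 3 to 1 scaled to all reads and 0 to 4 scaled to reads outside the abundant loci. The 3 co-repressors named by the rule all fell: Tle2 by 1.74 (adjusted p = 5.0e-05), Tle4 by 1.04 (adjusted p = 0.00012) and Tle1 by 0.69 (adjusted p = 0.0013). Tle1 had -0.18 after removal of the length and GC trend (adjusted p = 0.35), and scaled to all reads Tle1 had -0.13 (adjusted p = 0.58) and Tle4 -0.48 (adjusted p = 0.059).

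Of 13 other Wnt target genes tested, 6 rose and 1 fell, and the median was 0.67. The split was 9 to 1 scaled to all reads and 1 to 3 scaled to reads outside the abundant loci. Sp5, a transcription factor induced by Wnt signals in many tissues, was at 0 to 12.8 normalised reads in GF and 15.6 to 27.8 in CV livers (adjusted p = 0.00067). The conditions did not overlap, as for 31.3% of all genes. Its mean was 4.47 normalised reads in GF and 20.6 in CV livers, so that it passed the filter on low values through the CV livers alone. Sp5 was near the floor in GF, with a mean of 3.0 reads per GF library and 32.7 per CV library. Tcf7 rose by 1.15 (adjusted p = 0.0036) and Zeb1 fell by 1.67 (adjusted p = 7.4e-06). Tcf7 had 0.71 scaled to reads outside the abundant loci (adjusted p = 0.051) and 0.67 after removal of the length and GC trend (adjusted p = 0.060). Its M change was 0.49 (adjusted p = 0.41) and its F change 1.82 (adjusted p = 0.0020), at 5 to 105 reads per library. Of 17 genes for glutamine, glutamate and ammonium tested, 4 rose and 3 fell, and the median was 0.41. The split was 11 to 3 scaled to all reads and 1 to 4 scaled to reads outside the abundant loci. Got2, the mitochondrial aspartate aminotransferase, rose by 1.67 (adjusted p = 1.0e-05), and 9.0% of its exon bases are shared with a gene on the opposite strand. The amino acid transporters Slc38a2 and Slc1a5 fell by 1.61 (adjusted p = 8.0e-06) and 1.51 (adjusted p = 9.8e-05). Leaving out the library labelled CV male 3 changed the called counts of the glutamine, glutamate and ammonium list to 7 higher and 3 lower. Those of the β-catenin core machinery became 4 and 9. Those of the other Wnt target genes became 5 and 2, with a median of 0.47. Those of the Wnt ligands, R-spondins and secretion became 1 and 2.

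**Figure D4:**
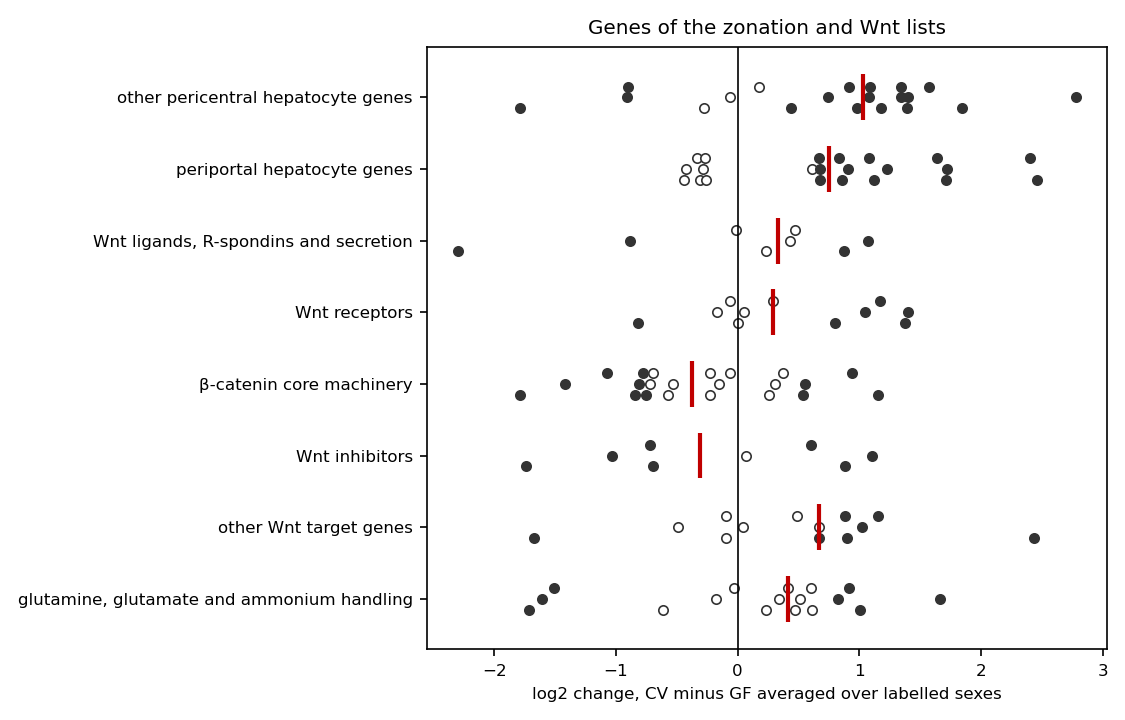
Averaged log2 change between CV and GF livers of the tested genes in 8 lists, 1 point per gene, filled for an adjusted p under 0.05, with a red bar at the median of each list. Medians run from -0.38 for the β-catenin core machinery to 1.03 for other pericentral hepatocyte genes, beside 0.075 for all genes. The 4 hepatocyte markers tested, which are not drawn, had a median of 1.09.

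To find the gene that moved most like each of the 9, log2 values were set to a mean of 0 and an SD of 1 over the 12 libraries, and the root-mean-square distance to 11014 genes was taken. The closest match was that of Cyp2e1 with Bphl, at a distance of 0.081, and Bphl rose by 2.01 on the log2 scale. Tbx3 was nearest to Lima1 (0.23), Glul to Npm1 (0.29), Slc1a2 to Nav1 (0.33), Oat to the retinal dehydrogenase gene Aldh1a1 (0.36) and Znrf3 to Cnst (0.39). Rnf43 was nearest to Kank1 (0.46), Lgr5 to Zbtb41 (0.51) and Axin2 to Rbms2 (0.59), the loosest match. These distances describe 12 libraries that share 1 contrast and 1 set of depths.

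**Figure D5:**
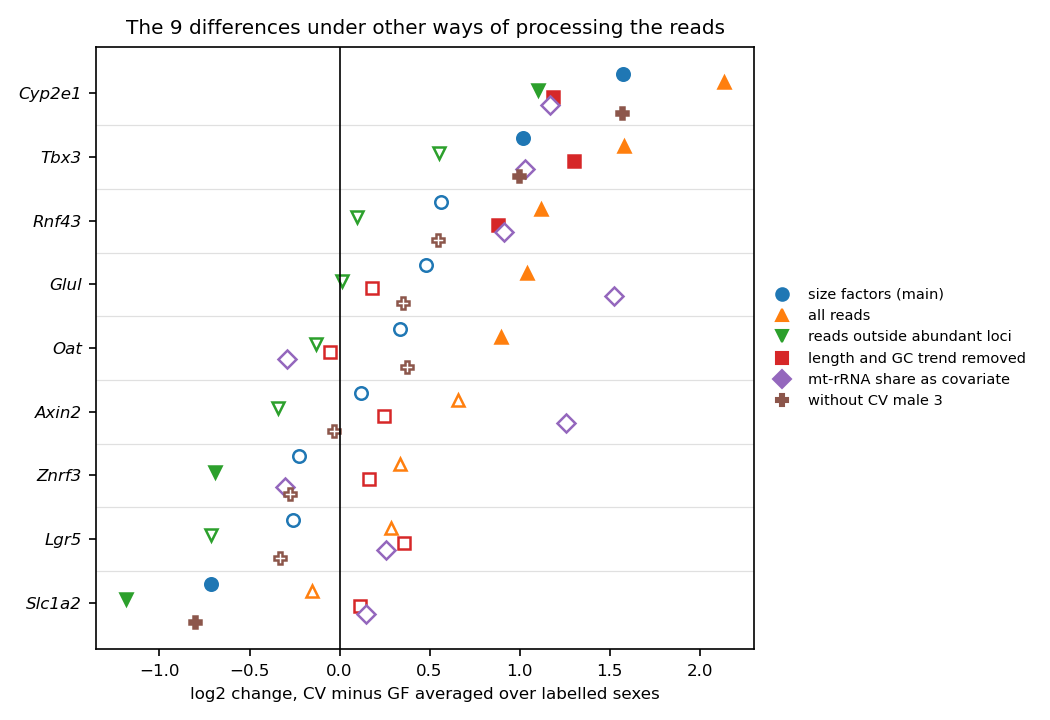
Averaged log2 change of the 9 genes under the main size factors, 2 other scalings, removal of the length and GC trend, a covariate for the mitochondrial ribosomal RNA share, and after removal of the library labelled CV male 3, with filled symbols for an adjusted p under 0.05. Cyp2e1 stays between 1.10 and 2.14 and Tbx3 between 0.55 and 1.58, whereas Slc1a2 runs from -1.18 to 0.15.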

How the data were processed

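Liver RNA of 12 mice was sequenced, 1 library per mouse. The deposited values are signal: normalised read counts, made by the authors by dividing counts by DESeq2 size factors. HTSeq 0.6.1p1, DESeq2 and GRCm38 are named in the submitters' processing notes, and the aligner is not given in the sources used here. Each value was a whole number of reads within 0.01 reads (100% of values), so that counts were recovered for count tests, where edgeR called 7634 of 12555 genes in the averaged comparison. Groups came from the titles. Genes with a mean of at least 10 were fitted by limma 3.58.1 (R 4.3.3) on log2(value + 1), with 4 group means over all 12 libraries and a variance trend, and Benjamini-Hochberg adjustment over 11782 genes at 0.05. A fold change on this scale understates that of low genes. Intervals are 95%, and those from 3 mice a group are wide.

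The members and lists were chosen with earlier results of these data known. Named were all members, Ctnnb1, Tcf7l2, Wnt2, Wnt9b and Rspo3, the 3 genes of each list with the smallest p in the averaged comparison, and the nearest profile of each member. One gene that this rule names is not reported here. A total of 34 alternatives was run, 5 of them chosen after the data were seen: other scalings, pseudocounts and filters, edgeR 4.0.16, DESeq2 1.42.0, limma-voom, thinned reads, covariates, length and GC content (GENCODE mouse release 21), a replicate block and each library left out. Replicate numbers did not pair GF with CV samples: same-numbered pairs had correlations of deviations of -0.23 to 0.019. Those of GF males and females were 0.059, 0.40 and 0.068. Those of CV males and females (0.19, 0.12 and 0.17) were all over 0.1, and there a replicate block called 0 of 9 members, as did the fit without it. Promoters came from RefSeq (GRCm38.p6), where 6 of 10 members had an entry.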

Additional observations from a re-analysis of the deposited data

How the results depend on the processing

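The count of called genes among the 9 changed by over 1.5 times in these cases. In the averaged comparison (3 called) it was 5 scaled to all reads, by limma or edgeR, and 0 with either share as a covariate, on a log2 or percent scale. In M mice (2 called) it was 1 scaled to reads outside the abundant loci, with a minimum mean of 1 or with no filter, 0 with either covariate on either scale, and 1 with the length and GC trend removed without the library labelled CV male 3. Leaving out 1 library gave 0 to 2, with 1 without GF male 1 or the library labelled CV male 3 and 0 without GF male 3. In F mice (3 called) it was 5 scaled to all reads, by limma or edgeR, and 0 with either covariate on either scale, and leaving out 1 library gave 2 to 4, or 3 to 4 in the averaged comparison. Between M and F mice in GF livers (0 called) it was 2 scaled to all reads, by limma or edgeR, and 1 by DESeq2, of 7 with an adjusted p. Over all genes, 7194 were called, against 139 and 12 with the 2 shares on the log2 scale and 0 and 7 on the percent scale. Called genes of the 8 lists (70) came to 1 with either covariate on the log2 scale and 0 on the percent scale, and to 62 to 73 with 1 library left out. The direction of Slc1a2 reversed in the averaged comparison with the mitochondrial ribosomal RNA share (0.15, or 0.57 on the percent scale), the abundant loci share (0.33, or 1.51), and the length and GC trend removed (0.11, or 0.046 without the library labelled CV male 3). In F mice it reversed with the abundant loci share (0.12, or 1.73 in percent) and the mitochondrial ribosomal RNA share in percent (0.57). The cause was not tested. No other called gene among the 9 changed sign. A replicate block left the called counts at 3 averaged, 2 in M mice and 3 in F mice, and changed no call, but without the library labelled CV male 3 it left 0 in M mice (Tbx3 at adjusted p = 0.050). The block called 72 list genes. Axin2 and Lgr5 were below a minimum mean of 50 and gave no value there. These 2 genes had 10 to 84 reads per library.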
